A study of Mus musculus with 60 samples.

Results

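The mitochondrial genome transcripts are the genes read from the cell's own mitochondrial DNA. They were taken as every gene whose mouse symbol begins with mt-, which gave 37 of the 55414 genes in the count table: 13 protein-coding genes (mRNA), 2 ribosomal RNA genes and 22 transfer RNA genes. They were followed in 60 RNA-seq libraries of OT-I CD8 T cells, which carry a transgenic T cell receptor, purified as naive cells by negative selection from spleens of NOD mice. The mice lacked Sh2b3 (Sh2b3-/-, knockout, KO) or carried it (Sh2b3+/+, wild type, WT). Sh2b3 encodes LNK, an adaptor protein that dampens cytokine receptor signalling.

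With blocking anti-IL-2 (10 µg/mL) and 24 h of stimulation there were 4 KO and 4 WT libraries. Without it each genotype had 11 libraries at 0 h and 5 libraries at each of 2, 6 and 24 h. Stimulation was plate-bound anti-CD3 at 10 µg/mL with soluble anti-CD28 at 5 µg/mL. All mice shared the NOD strain and the OT-I transgene, and the labels give no age. The library names fall into 4 runs of numbers. AR1-AR30 holds 0, 2 and 6 h, AR33-AR60 and AR131-AR158 each hold 0 and 24 h, and IL21-IL28 holds every anti-IL-2 library. The names do not say what a run was. Nothing in the labels says whether libraries of a group came from separate mice, so p-values measure only the spread between libraries.

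Mitochondrial DNA is a small circle copied and transcribed inside the organelle. Both strands are read as long precursors, and tRNAs punctuate the precursors and mark where they are cut into single RNAs. The mRNAs encode core subunits of respiratory complexes I (Nd genes), III (Cytb) and IV (Co genes) and of ATP synthase (Atp genes). The 12S (mt-Rnr1) and 16S (mt-Rnr2) rRNAs form the mitochondrial ribosome together with proteins made from nuclear genes, and nuclear genes supply all other respiratory subunits. Activated T cells are known to enlarge their mitochondria as they grow.

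Copies of mitochondrial DNA also lie in the nuclear chromosomes as pseudogenes. Of these, 2 are set out here, because a short read from an identical stretch fits both the mitochondrial gene and its copy. The first bases of mt-Nd3, a complex I subunit, and of its copy Gm28438 on chromosome 1 differ at 1 position, shown in capitals. The substitution is T3C, counted from 1 at the 5′ end of mt-Nd3, and it is the only one over 345 aligned bases.
mt-Nd3: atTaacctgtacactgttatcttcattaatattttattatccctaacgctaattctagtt
Gm28438: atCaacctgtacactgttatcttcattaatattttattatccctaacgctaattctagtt

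A stretch inside mt-Co3, a complex IV subunit, and the same stretch of its copy Gm28437 on chromosome 1, bases 363 to 422 of each, are identical, as were all 783 aligned bases.
mt-Co3: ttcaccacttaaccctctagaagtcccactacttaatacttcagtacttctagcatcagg
Gm28437: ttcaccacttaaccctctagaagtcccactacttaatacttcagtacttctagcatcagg

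Transcript sequences, strands and gene order came from GENCODE M21 by gene identifier. The files use GRCm39 and that release an older build, so no coordinates are given. Each transcript was split into every possible word of 75 bases, and the words were looked up in the annotated nuclear pseudogenes. Nuclear pseudogenes held 99.9% of the words of mt-Co3, 99.5% of those of mt-Co2 and of mt-Atp6, 98.7% of those of mt-Nd4l and 97.8% of those of mt-Nd3. They held 61.5% of the words of mt-Nd4, 39.8% of those of mt-Co1, 5.7% of those of mt-Nd2, 1.7% of those of mt-Nd5, and none of those of mt-Nd1, mt-Cytb, mt-Nd6, mt-Atp8 and both rRNAs. Copies that are not annotated as genes were not searched.

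Levels per length separated the mRNAs into a high and a low group. On the scale of CPM (counts scaled to a library total of 1000000) per kb of transcript, averaged over the 60 libraries, mt-Co1 stood at 5222, mt-Nd1 at 2635, mt-Cytb at 2355, mt-Nd2 at 1326, mt-Nd6 at 1141, mt-Nd5 at 1074 and mt-Nd4 at 900. The 5 mRNAs with 97.8% or more of their words in nuclear copies stood far below them. On the same scale mt-Nd3 was at 30.0, mt-Co3 at 16.3, mt-Co2 at 14.5, mt-Atp6 at 11.9 and mt-Nd4l at 7.71. The lowest mRNA was mt-Atp8, at 0.457, which overlaps mt-Atp6 on the same transcript. How reads that fit several places, or overlapping genes, were counted is not given in the sources used here, and its part in these levels was not tested. The 6 low mRNAs are therefore reported as uncertain. The copies carried counts of their own. Gm28661, the copy of mt-Co2, had a median of 10.8 CPM over all libraries, Gm10925, the copy of mt-Atp6, had 6.31 CPM, and Gm28437, the copy of mt-Co3, had 4.65 CPM. Lower medians were those of Gm10222, the copy of mt-Nd4l, at 0.821 CPM, and of Gm28438, the copy of mt-Nd3, at 0.482 CPM.

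**Figure D1:**
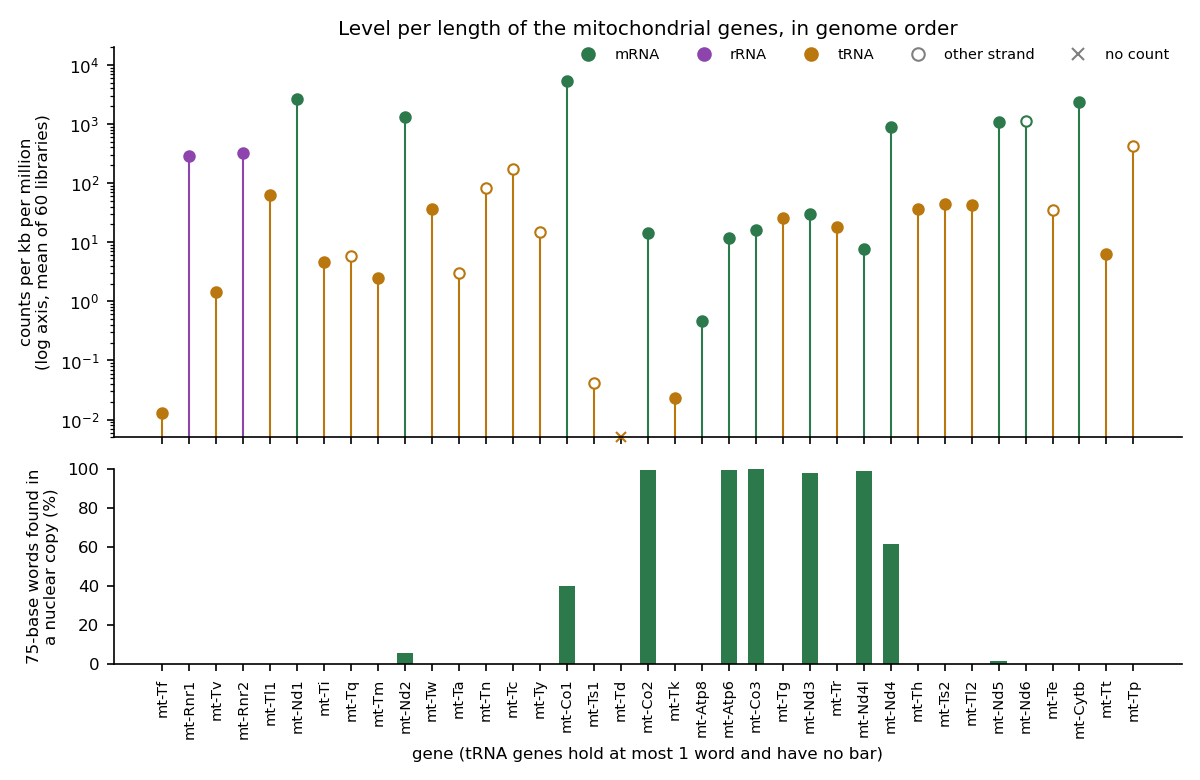
Upper panel: mean level of each of the 37 mitochondrial genes over 60 libraries, in CPM per kb on a log axis, in genome order (filled points, main strand; open points, other strand; cross, no count). Lower panel: percent of each gene's 75-base words found in an annotated nuclear copy; the genes near 100% are the low ones above, apart from mt-Atp8, which has 0% and the lowest mRNA level.

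The rRNAs stood at 285 (mt-Rnr1) and 326 (mt-Rnr2) CPM per kb, below the abundant mRNAs, in libraries described as polyA RNA. Among tRNAs the highest was the proline tRNA mt-Tp, at 432 on that scale, followed by mt-Tc at 174, mt-Tn at 83.5, mt-Tl1 at 61.9 and mt-Ts2 at 44.0. At the other end mt-Td had no count in any library, which allows a level of up to 0.00258 CPM over all libraries (3 counts, counting error only). The tRNA genes mt-Tf, mt-Tk and mt-Ts1 had 1, 2 and 3 counts in all. The main strand carries 12 of the mRNAs and both rRNAs. The other strand carries mt-Nd6 and 8 tRNAs, among them mt-Tp, mt-Tc and mt-Tn. Whether counting used the strand is not given in the sources used here, so reads of a tRNA gene cannot be told apart from reads of a precursor of the opposite strand that runs through it. The proline tRNA gene is printed because the only genotype difference past the test fell on it, with its anticodon in capitals.
mt-Tp: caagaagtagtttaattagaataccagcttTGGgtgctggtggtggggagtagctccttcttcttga

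Library totals ran between 13987029 and 35476519 counts, with a median of 17994613. Summed over 5 markers, CD8 T cell genes stood at 1636 to 4723 CPM in every library, while B cell markers reached at most 60 CPM, erythroid markers 163 CPM and markers of the other cell types looked for 19.5 CPM. The targeted gene matched the labels. Sh2b3 stood at 13.1 ± 2.91 CPM in KO and 76.7 ± 9.71 CPM in WT libraries at 0 h (SD, n = 11 each), and KO libraries were lower at every other time too, by 2.25 to 2.77 on the log2 scale. The KO libraries AR8 (0 h), AR18 (2 h) and AR28 (6 h) had the lowest ratio of mt-Rnr1 to mt-Rnr2 counts in their groups, at 25.7, 38.5 and 32.4 per 100. Results that hold them were also computed without them, and their values are given where they change a count.

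Mitochondrial genes took 1.26% to 3.63% of a library's counts, with a median of 1.92%. Nearly all of that was mRNA (median 1.82%), with 0.0736% in rRNA and 0.00541% in tRNA. At 24 h with anti-IL-2 the share was 1.86 ± 0.253% in KO and 1.91 ± 0.189% in WT libraries (SD, n = 4 each). At 0 h it was 2.03 ± 0.233% in KO and 2.135 ± 0.375% in WT libraries (n = 11 each), at 2 h 1.81 ± 0.154% in KO and 2.00 ± 0.203% in WT, and at 6 h 1.605 ± 0.195% in KO and 1.70 ± 0.192% in WT (n = 5 each). The ranges of KO and WT overlapped at each of these times.

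At 24 h without anti-IL-2 the share was 1.63 ± 0.321% in KO and 2.31 ± 0.919% in WT libraries (n = 5 each). The KO libraries held 1.79%, 1.81% and 1.96% in run AR131-AR158, and 1.26% and 1.31% in AR33-AR60. The WT libraries held 2.07%, 2.82% and 3.63% in AR131-AR158, and 1.41% and 1.62% in AR33-AR60. Each KO library was below each WT library of its own run, and AR33-AR60 libraries of both genotypes were below all AR131-AR158 libraries. No test was made on the share, since it is a sum over the members. In bulk RNA, fewer cells of a kind and less RNA per cell cannot be told apart.

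**Figure D2:**
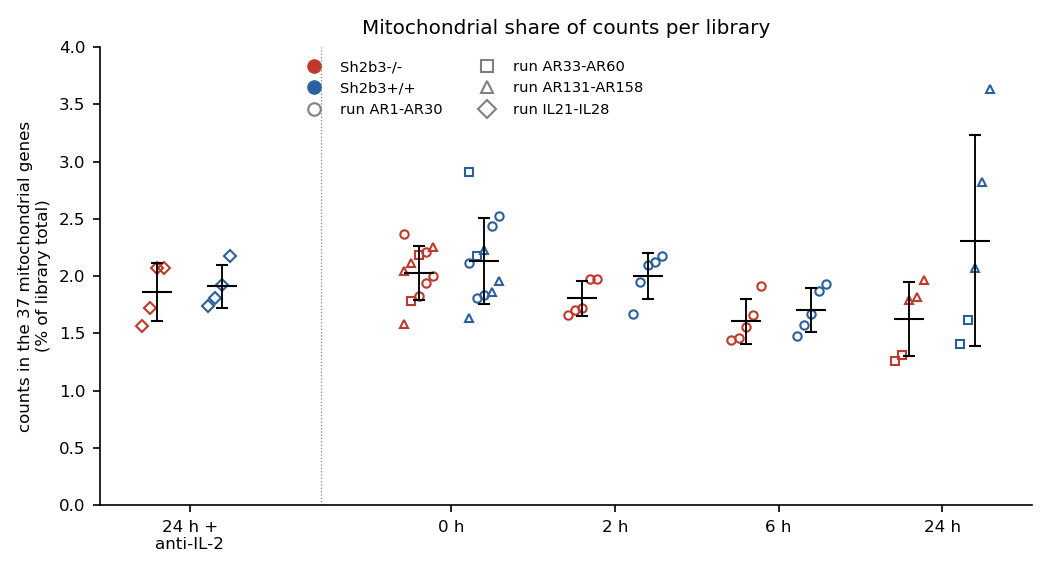
Counts in the 37 mitochondrial genes as a percent of each library's total, by time and antibody, KO (red) left of WT (blue), with a symbol for each library run; black bars are the mean ± SD. At 24 h WT libraries spread from 1.41% to 3.63%, and KO libraries from 1.26% to 1.96%.

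The question of the study's design is how loss of Sh2b3 changes T cells at rest and after stimulation, and of the mitochondrial transcripts nearly all stayed below the threshold between genotypes. Each comparison was fitted on all genes with edgeR's quasi-likelihood test, and a gene was called at a Benjamini-Hochberg adjusted p under 0.05. At 0 h 0 of the 26 mitochondrial genes that passed the low-count filter were called, where 0.633% of all genes tested were called, 0.328% higher and 0.305% lower. These 26 were 12 mRNAs, both rRNAs and 12 tRNAs. By that tool 3 of them had an unadjusted p under 0.05, and DESeq2 called 1. At 2 h 0 of 26 were called (background 0.0647%, 0.0323% in each direction), with 2 under 0.05 unadjusted and 0 by DESeq2. At 6 h 0 of 26 were called (background 0.0306%, 0.0153% in each direction), with 0 under 0.05 unadjusted and 0 by DESeq2.

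The 7 abundant mRNAs, those with a mean above 100 CPM (mt-Co1, mt-Cytb, mt-Nd1, mt-Nd2, mt-Nd4, mt-Nd5 and mt-Nd6), had a median log2 difference of -0.05 at 0 h, -0.17 at 2 h and -0.12 at 6 h. At 0 h their median was -0.06 within AR1-AR30, -0.34 within AR33-AR60 and 0.08 within AR131-AR158. All 7 were below 0 in AR1-AR30 and in AR33-AR60 and above 0 in AR131-AR158, so no common direction held across runs.

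Among resting cells the lowest adjusted p belonged to mt-Rnr1, the small-subunit rRNA. Its level, in CPM scaled by TMM over all libraries (the scale of all single-gene levels from here on), ran from 112 through a median of 170 to 197 in KO libraries, and from 170 through 202 to 279 in WT libraries. The groups overlapped. The log2 difference was -0.36 ± 0.10 (SE), with an adjusted p of 0.106 by edgeR's quasi-likelihood test and 0.00581 by DESeq2.

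At 24 h all abundant mRNAs had lower values in KO cells, but none passed the main test, and the spread among WT libraries was wide. Of 28 mitochondrial genes tested 0 were called by edgeR's quasi-likelihood test (background 0.372%, 0.225% higher and 0.147% lower), with 8 under an unadjusted p of 0.05. DESeq2 called 5, mt-Nd6, mt-Nd4, mt-Co1, mt-Nd2 and mt-Nd5, all lower in KO. The background is that of edgeR, and no share of all genes called is given for DESeq2 here or in any other comparison. All 7 abundant mRNAs had a log2 difference below 0, with a median of -0.49. The nuclear genes for mitochondrial ribosomal proteins had a median of 0.11 in the same fit, and all genes tested a median of 0.00.

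For mt-Co1, the catalytic subunit of complex IV, KO libraries stood at 6418, 6786 and 7507 CPM in AR131-AR158 and at 4168 and 4236 CPM in AR33-AR60. WT libraries stood at 7900, 10063 and 12920 CPM in AR131-AR158 and at 4519 and 5111 CPM in AR33-AR60. The KO values lie below the WT values within each run and overlap them across runs. The log2 difference was -0.43 ± 0.12 (adjusted p 0.176, edgeR). For mt-Nd6, the complex I subunit read from the other strand, KO libraries held 464 to 499 CPM in AR131-AR158 and 372 and 403 CPM in AR33-AR60. WT libraries held 631, 840 and 1237 CPM in AR131-AR158 and 404 and 484 CPM in AR33-AR60. Its log2 difference was the lowest of the abundant mRNAs, at -0.64 ± 0.17 (adjusted p 0.140).

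Some other members went the same way without passing the test. mt-Cytb of complex III had a log2 difference of -0.51 ± 0.14, mt-Nd1 of complex I one of -0.45 ± 0.15, and mt-Nd5 of complex I one of -0.46 ± 0.14. The rRNAs had -0.48 ± 0.18 for mt-Rnr1 and -0.33 ± 0.17 for mt-Rnr2. Some tRNAs had the higher mean in KO libraries, with ranges that overlapped. Among them mt-Th averaged 3.97 CPM in KO against 2.84 CPM in WT, and mt-Tl1 6.60 against 5.40 CPM. Within AR131-AR158 alone the 7 abundant mRNAs had a median of -0.66 and within AR33-AR60 alone one of -0.22, with 7 of 7 below 0 in both and 0 members called in either. A genotype had 3 libraries in AR131-AR158 and 2 in AR33-AR60. The 7 mRNAs were read in the same libraries, so counts of their signs, here and elsewhere, are not 7 separate observations. No share of all genes called is given for these single-run fits.

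Genes that mark naive T cells are given beside this difference. In AR131-AR158 at 24 h Lef1 stood at 379 to 515 CPM in KO and 596 to 678 CPM in WT libraries, Tcf7 at 800 to 1131 CPM in KO and 1123 to 1290 CPM in WT, and Il7r at 323 to 693 CPM in KO and 620 to 863 CPM in WT. In AR33-AR60 Lef1 stood at 158 and 254 CPM in KO and 169 and 204 CPM in WT libraries, Tcf7 at 444 and 675 CPM in KO and 569 and 588 CPM in WT, and Il7r at 158 and 341 CPM in KO and 195 and 230 CPM in WT. The genotypes did not overlap for Lef1 in AR131-AR158, and overlapped for Tcf7 and Il7r there and for all 3 genes in AR33-AR60. Ccr7 stood at 393 to 537 CPM in KO and 406 to 547 CPM in WT libraries over both runs. None of these 4 genes was called by edgeR in that comparison, with log2 differences of -0.22 for Lef1, -0.24 for Tcf7, -0.29 for Il7r and 0.01 for Ccr7. Of the 5 CD8 T cell markers, 1 was called, Trac, the constant part of the T cell receptor alpha chain, lower in KO by 0.48 on the log2 scale. The part of these genes in the result was not tested.

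Without KO library AR60 (AR33-AR60), 2 members, mt-Nd6 (adjusted p 0.0309) and mt-Nd4 (0.0460), passed edgeR's threshold at 24 h. No share of all genes called is given for that fit. Leaving out any other library left 0 called. The difference between the 24 h and 0 h genotype effects was tested as an interaction, and 0 of 29 members were called (background 0.113%, 0.0732% higher and 0.0399% lower; 1 under 0.05 unadjusted; DESeq2 0). For mt-Nd6 that interaction was -0.64 ± 0.27. The interactions with 2 h and 6 h called 0 of 27 each (background 0% both, 1 under 0.05 unadjusted in each, DESeq2 0).

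**Figure D3:**
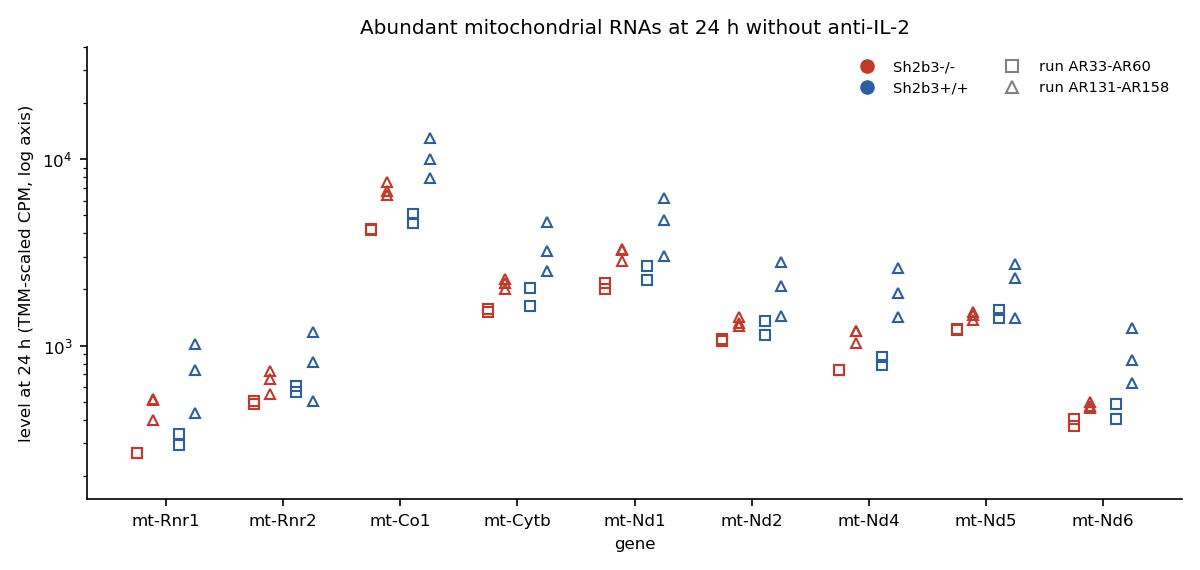
Levels of both rRNAs and the 7 abundant mRNAs at 24 h without anti-IL-2, in TMM-scaled CPM on a log axis, each point 1 library, KO (red) left of WT (blue), squares for run AR33-AR60 and triangles for AR131-AR158. The WT triangles spread widest, from 7900 to 12920 CPM for mt-Co1.

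With anti-IL-2 at 24 h, 1 of 29 members was called between genotypes, mt-Tp, the proline tRNA gene printed above (background 0.35% in either direction, 0.201% higher and 0.149% lower; 2 under 0.05 unadjusted; DESeq2 1). KO libraries held 34.6, 39.2, 42.2 and 49.2 CPM, and WT libraries 53.1, 60.2, 70.1 and 73.3 CPM. The groups did not overlap. The log2 difference was -0.64 ± 0.12 (adjusted p 0.0254, edgeR). The call was lost when IL27 or IL28 (KO) or IL21, IL23 or IL24 (WT) was left out, with adjusted p-values of 0.0774, 0.0871, 0.0932, 0.130 and 0.0534 in that order. The log2 difference stayed between -0.73 and -0.56 over all libraries left out in turn.

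The same gene at 24 h without anti-IL-2 stood at 36.8 to 59.1 CPM in KO and 37.4 to 71.2 CPM in WT libraries, which overlap. Its interaction of genotype with anti-IL-2 was -0.45 and not called. In that interaction 0 of 30 members were called (background 0%, 0 under 0.05 unadjusted, DESeq2 0). The 7 abundant mRNAs had a median log2 difference of -0.11 between KO and WT with anti-IL-2.

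Anti-IL-2 was set against its absence within each genotype. All antibody libraries are in a run of their own, so the antibody and the run cannot be told apart in these comparisons. In KO cells 1 of 29 members was called, mt-Ts2, a serine tRNA (background 5.27% in either direction, 2.37% higher and 2.9% lower; 3 under 0.05 unadjusted; DESeq2 2). It stood at 4.61, 5.29, 6.50 and 7.10 CPM with the antibody and at 1.66, 2.07, 2.995, 3.01 and 3.29 CPM without it. The log2 difference was 1.17 ± 0.30 (adjusted p 0.0357, edgeR). It lost the call without any 1 of the 4 antibody libraries (adjusted p 0.0685 or more) and without AR156 (0.0591) or AR60 (0.0708) of the group without the antibody.

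In WT cells 0 of 29 were called (background 4.4%, 1.8% higher and 2.6% lower; 3 under 0.05 unadjusted; DESeq2 1). The member with the lowest adjusted p was mt-Atp6, an ATP synthase subunit among the uncertain genes, at 5.63 to 8.35 CPM with the antibody and 6.81 to 32.6 CPM without it (log2 difference -1.24 ± 0.37, adjusted p 0.0778 by edgeR and 0.0110 by DESeq2; edgeR without AR53, 0.0181). The 7 abundant mRNAs had a median log2 difference of 0.19 in KO and -0.38 in WT cells. Over all mRNAs tested the WT median was -0.33, and -0.07 without AR154. Each abundant mRNA overlapped between libraries with and without the antibody in both genotypes. Lef1, which marks naive T cells, was called lower with the antibody in both genotypes, by 1.25 in KO and by 1.61 in WT cells on the log2 scale. It stood at 130 to 187 CPM in KO and 130 to 161 CPM in WT libraries with the antibody. Without the antibody, AR33-AR60 libraries held 158 and 254 CPM in KO and 169 and 204 CPM in WT. AR131-AR158 libraries held 379 to 515 CPM in KO and 596 to 678 CPM in WT. Tcf7, Il7r and Ccr7 overlapped between libraries with and without the antibody in both genotypes. The part of these genes was not tested.

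After stimulation the rRNA mt-Rnr1 rose at 2 h and 5 of the 7 abundant mRNAs fell at 6 h, in both genotypes. Both rRNAs and the tRNAs mt-Tg, mt-Tl2 and mt-Tp were called higher at 24 h than at 0 h, also in both genotypes. For mt-Tg, single WT libraries at 24 h lay within the 0 h range, as given below. Differences between the classes of RNA were not tested. The 2, 6 and 24 h comparisons of a genotype share their 0 h libraries, and those of KO and WT share none. Libraries were treated as independent in these tests, and a check of paired library numbers is given at the end.

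At 2 h in KO cells 1 of 26 members was higher and 1 lower (background 57.6%, 28.4% higher and 29.2% lower), and in WT cells 1 of 26 was higher and 4 lower (63.6%, 30.3% and 33.3%). mt-Rnr1 stood at 243, 255, 263, 300 and 329 CPM at 2 h in KO libraries, all above the 112 to 197 CPM at 0 h. Its log2 difference was 0.80 ± 0.12 (adjusted p 7.4e-06, edgeR). In WT libraries it stood at 264, 271, 281, 287 and 311 CPM at 2 h, against 170 to 279 CPM at 0 h, which overlap (0.51 ± 0.12, adjusted p 0.0011). The large-subunit rRNA mt-Rnr2 was not called at 2 h in either genotype, at 506 to 661 CPM in KO libraries against 299 to 608 CPM at 0 h.

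The glutamate tRNA mt-Te fell in both genotypes at 2 h, by 1.48 ± 0.38 in KO and by 1.17 ± 0.36 in WT cells on the log2 scale. It averaged 1.27 CPM at 2 h against 2.81 CPM at 0 h in KO, and 1.07 against 2.61 CPM in WT libraries. Its 2 h libraries held only 7 to 35 counts, at 0.576 to 2.06 CPM in KO and 0.464 to 1.81 CPM in WT. The 0 h libraries of AR1-AR30, the run of every 2 h library, held 2.26 to 4.59 CPM in KO and 1.35 to 3.34 CPM in WT. WT libraries thus overlapped within that run, and both genotypes overlapped when all 0 h libraries are taken. The other falls called at 2 h were in WT cells: the asparagine tRNA mt-Tn (-0.75 ± 0.22), the cysteine tRNA mt-Tc (-0.43 ± 0.17) and mt-Co1 (-0.26 ± 0.10). The call of mt-Tc was lost without AR14 (adjusted p 0.0540) and that of mt-Co1 without AR15 (0.0711). No other mRNA was called at 2 h in either genotype. The count in KO cells depended on single libraries and settings: it was 4 without AR16, and DESeq2 also called 4. No share of all genes called is given for those fits, so the change cannot be told apart from one among all genes.

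At 6 h 5 of the 7 abundant mRNAs fell in both genotypes. In KO cells 0 of 27 members were higher and 11 lower (background 46.3% in either direction, 23.2% higher and 23.1% lower), and in WT cells 0 of 26 were higher and 11 lower (56.7%, 28.5% and 28.2%). Of these, 10 were lower in both: mt-Co1, mt-Cytb, mt-Nd1, mt-Nd2, mt-Nd4, mt-Co2, mt-Atp6, mt-Tc, mt-Tn and mt-Tp. No share of all genes called lower in both genotypes is given beside that count. The 7 abundant mRNAs had a median log2 difference of -0.49 in KO and -0.48 in WT cells, while all genes tested had a median of -0.00 in KO and -0.01 in WT cells.

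mt-Co1 at 6 h held 5828, 5833, 6394, 6603 and 7967 CPM in KO libraries, against 7414 to 11068 CPM at 0 h (median 9790). Only the highest 6 h library, AR28, reached into the 0 h range. The log2 difference was -0.56 ± 0.12 (adjusted p 8.5e-04, edgeR). WT libraries held 5702, 6056, 6481, 6876 and 7371 CPM at 6 h, all below the 7693 to 13472 CPM at 0 h (-0.59 ± 0.11, adjusted p 9.9e-05). mt-Cytb was lower by 0.47 ± 0.12 in KO and by 0.48 ± 0.10 in WT cells, and mt-Nd1 by 0.53 ± 0.13 in KO and by 0.51 ± 0.14 in WT cells. mt-Nd4, another complex I subunit, was lower by 0.49 ± 0.13 in KO cells. mt-Nd5 and mt-Nd6 were not called at 6 h in either genotype, with mt-Nd5 at -0.32 ± 0.17 in WT cells.

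The tRNAs mt-Tc (-1.01 ± 0.18) and mt-Tn (-1.24 ± 0.28) had the largest differences among the members called at 6 h in WT cells, and in KO cells mt-Te (-1.26 ± 0.36). mt-Rnr1 was no longer called at 6 h. It stood at 167 to 219 CPM in KO and 156 to 216 CPM in WT libraries. Without AR8 and AR28 the median of the abundant mRNAs in KO cells was -0.64, and 15 members were called. No share of all genes called is given for that fit. Calls of mt-Tp in KO cells were lost without AR26, AR29 or AR30 (adjusted p 0.0647 or more), and those of mt-Atp6 without AR29 or AR30 (0.0632 and 0.0513). Without AR28 alone mt-Rnr2 (adjusted p 0.00191), mt-Nd5 (0.0132) and mt-Nd6 (0.0416) were called lower too. Without AR30 alone mt-Rnr1 was called higher (adjusted p 0.0444).

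At 24 h both rRNAs were higher than at 0 h in both genotypes, and 3 abundant mRNAs were lower in KO cells. In KO cells 9 of 27 members were higher and 3 lower (background 60.8%, 30.5% higher and 30.3% lower), and in WT cells 9 of 26 were higher and 0 lower (59.3%, 29.2% and 30.1%). Higher in both were mt-Rnr1, mt-Rnr2, mt-Co3, mt-Nd3 and the tRNAs mt-Tg, mt-Tl2 and mt-Tp. The share of all genes called higher in both genotypes is not given. Lower were mt-Co1, mt-Cytb and mt-Nd4, called in KO cells. The glycine tRNA mt-Tg averaged 2.93 CPM at 24 h against 0.922 CPM at 0 h in KO, and 3.61 against 0.954 CPM in WT libraries. WT library AR152 held 0.536 CPM (10 counts), below the 1.19 to 1.67 CPM of WT libraries of its run at 0 h. WT library AR53 held 1.35 CPM, where WT libraries of its run held 0 and 1.41 CPM at 0 h.

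mt-Rnr1 reached 398, 510 and 514 CPM in AR131-AR158 and 265 and 266 CPM in AR33-AR60 in KO libraries, all above 0 h. Its log2 difference was 1.27 ± 0.16 (adjusted p 1.5e-06, edgeR). In WT libraries it reached 433, 742 and 1022 CPM in AR131-AR158 and 292 and 333 CPM in AR33-AR60, also all above 0 h (1.32 ± 0.24, adjusted p 2.0e-04). Within runs the difference was 1.61 in AR131-AR158 and 0.63 in AR33-AR60 in KO cells, and 1.75 and 0.56 in WT cells. mt-Rnr2 was higher by 0.60 ± 0.12 in KO and by 0.51 ± 0.18 in WT cells on the log2 scale, and the WT call was lost without AR154 (adjusted p 0.108). mt-Tp was higher by 0.89 ± 0.16 in KO cells, at 36.8 to 59.1 CPM against 14.1 to 32.8 CPM at 0 h. In WT cells it was higher by 0.95 ± 0.13, at 37.4 to 71.2 CPM against 16.8 to 33.8 CPM. The leucine tRNA mt-Tl2 averaged 4.58 CPM at 24 h against 1.21 CPM at 0 h in KO, and 6.01 against 1.79 CPM in WT libraries (log2 difference 1.94 ± 0.48 in KO and 1.81 ± 0.34 in WT cells).

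Among the mRNAs, mt-Nd3, one of the uncertain genes, had the smallest adjusted p in KO cells, with a log2 difference of 1.68 ± 0.22 (adjusted p 8.3e-07), at 15.1 to 19.8 CPM against 3.43 to 9.50 CPM at 0 h. In WT cells it was 1.28 ± 0.24, at 10.8 to 34.2 CPM against 5.86 to 10.9 CPM, which overlap. mt-Co1 in KO cells was lower than at 0 h by 0.64 ± 0.12 (adjusted p 1.3e-04) and mt-Cytb by 0.53 ± 0.10 (adjusted p 8.5e-05). mt-Nd1 went the other way in WT cells, higher by 0.53 ± 0.21 (adjusted p 0.0371, edgeR), a call that was lost without AR153 (0.0889) or AR154 (0.130) and with DESeq2. Without AR154, mt-Cytb was called lower in WT cells (-0.47, adjusted p 0.0294).

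The direction of the abundant mRNAs at 24 h depended on the run in WT cells. Within AR33-AR60 their median log2 difference was -0.48, with 7 of 7 below 0, and within AR131-AR158 it was 0.60, with 0 of 7 below 0. In KO cells the medians were -0.55 (6 of 7 below 0) and -0.18 (5 of 7). mt-Co1 in WT cells was -1.23 ± 0.14 in AR33-AR60 and 0.24 ± 0.15 in AR131-AR158. In KO cells it was -1.06 ± 0.14 and -0.41 ± 0.15, below 0 in both runs. mt-Rnr1, mt-Nd3 and mt-Tp were above 0 in both runs and both genotypes. Some markers of cell state split by run at 24 h too. The naive T cell genes Lef1 and Tcf7 were higher in every AR131-AR158 library than in any AR33-AR60 library of both genotypes, with the values given above. Ccr7 overlapped between the runs, and so did Il7r, at 323 CPM in AR156 (AR131-AR158) and 341 CPM in AR60 (AR33-AR60). Histone genes of DNA replication, summed as counts over the library total without TMM, stood at 16.03 to 30.1 CPM in KO and 11.8 to 26.8 CPM in WT libraries of AR131-AR158, and at 55.0 and 70.8 CPM in KO and 44.2 and 51.4 CPM in WT libraries of AR33-AR60. Their part in the run difference was not tested.

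**Figure D4:**
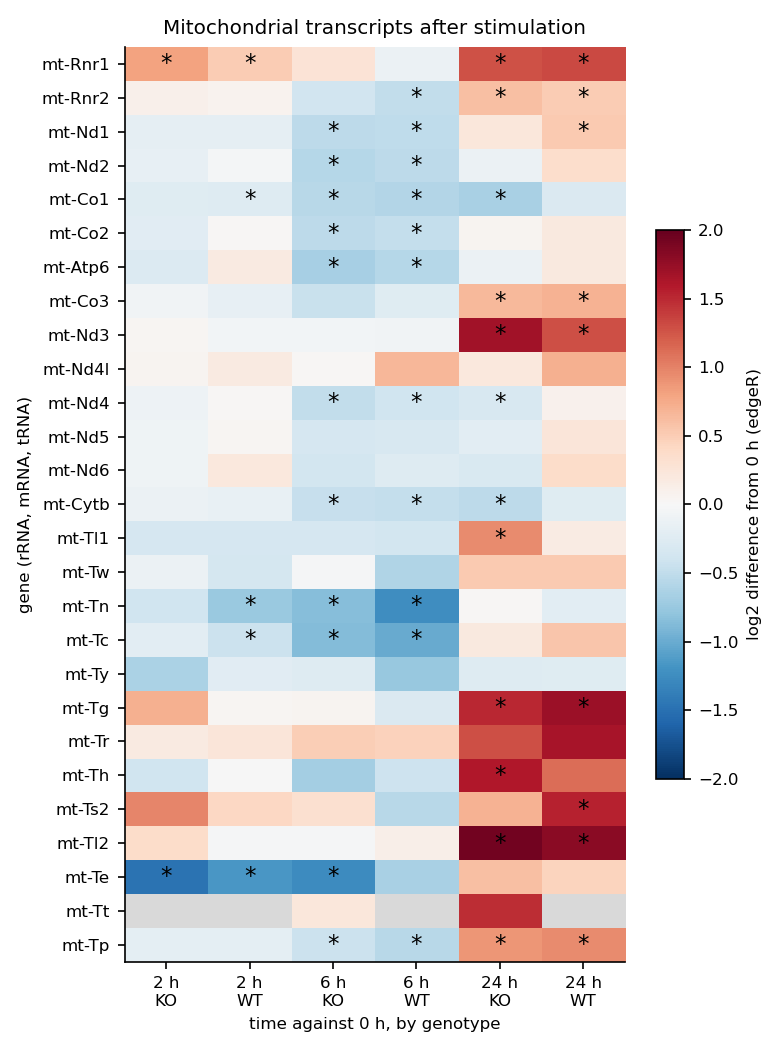
Log2 difference from 0 h (colour) of the tested mitochondrial genes at 2, 6 and 24 h, KO left of WT at each time; an asterisk marks an adjusted p under 0.05 (edgeR) and grey a gene below the filter. The abundant mRNAs are blue at 6 h in both genotypes, and mt-Rnr1, mt-Nd3, mt-Tl2 and mt-Tp are red at 24 h.

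The make-up of the mitochondrial RNA changed with time on ratios taken within a library, which do not depend on scaling to other genes. mt-Nd1 lies next to the rRNAs at the start of the main-strand precursor, and mt-Co1 lies further along it. Counts of mt-Nd1 per 100 counts of mt-Co1 averaged 25.97 at 0 h, 27.0 at 2 h, 26.3 at 6 h and 47.2 at 24 h in KO libraries. In WT libraries they averaged 27.0, 28.8, 28.6 and 47.0. At 24 h the range was 42.0 to 51.7 in KO and 38.0 to 52.5 in WT libraries, with no overlap with 21.0 to 29.1 at 0 h in KO or 20.9 to 30.8 at 0 h in WT libraries. This held in both runs. With anti-IL-2 at 24 h the mean was 37.7 in KO and 38.8 in WT libraries.

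Counts in the 2 rRNA genes per 100 mRNA counts averaged 3.06, 4.48, 3.97 and 6.71 at 0, 2, 6 and 24 h in KO libraries, and 3.45, 4.11, 3.52 and 6.31 in WT libraries. With anti-IL-2 they averaged 5.16 in KO and 5.17 in WT libraries. mt-Rnr1 per 100 counts of mt-Rnr2 averaged 36.6, 49.4, 49.6 and 65.6 in KO libraries and 40.3, 51.6, 48.9 and 74.2 in WT libraries over the same times. All 2 and 6 h libraries are in AR1-AR30, where this ratio averaged 30.6 in KO and 38.1 in WT libraries at 0 h. That ratio split by run at 24 h. It was 70.6 to 77.5 in KO and 86.3 to 91.2 in WT libraries of AR131-AR158, and 52.7 and 54.4 in KO and 51.5 and 54.8 in WT libraries of AR33-AR60. In KO libraries of AR33-AR60 it was 51.4 and 53.4 already at 0 h, overlapping the 24 h values of that run.

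**Figure D5:**
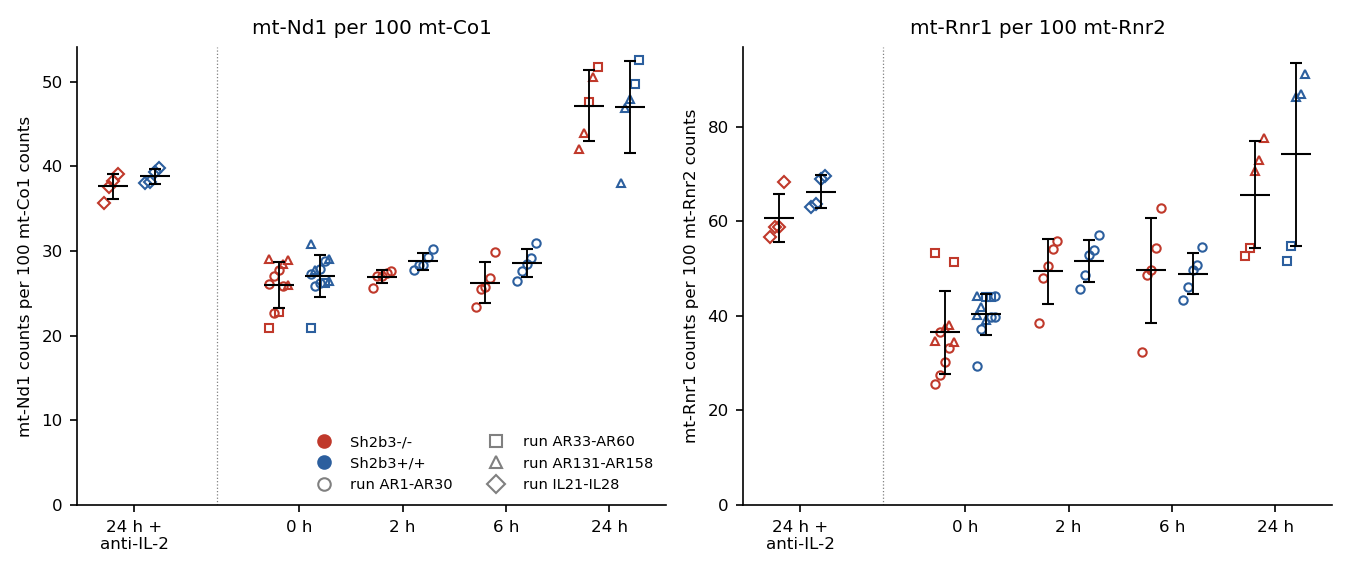
Left: mt-Nd1 counts per 100 mt-Co1 counts in each library; right: mt-Rnr1 counts per 100 mt-Rnr2 counts. KO (red) is left of WT (blue), symbols mark the library run, and bars are the mean ± SD. The left ratio is between 38.0 and 52.5 at 24 h without anti-IL-2, above every library at 0, 2 and 6 h, while the right one splits by run at 24 h.

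The low mRNA mt-Co2, a complex IV subunit with a near-identical nuclear copy, differed by run at 0 h. The ranges of the abundant mt-Co1 overlapped between runs, but those of mt-Nd5 relative to mt-Co1 did not, as given below. mt-Co2 stood at 4.66 to 6.86 CPM in KO and 4.67 to 6.23 CPM in WT libraries of AR1-AR30. In the other runs at 0 h it stood at 12.0 to 15.6 CPM in KO and 13.9 to 19.0 CPM in WT libraries, with no overlap. The nuclear-retained RNA Malat1 also split, in the other direction, with 1468 to 2391 CPM in the 0 h libraries of AR1-AR30 and 310 to 759 CPM in those of the other runs, on the scale of counts over the library total without TMM. Among abundant mRNAs, counts of mt-Nd5 per 100 counts of mt-Co1 split by run at 0 h too. They were 23.31 to 25.43 in KO and 23.04 to 28.91 in WT libraries of AR1-AR30. In the other runs they reached at most 19.28 in KO and 17.5 in WT libraries. In CPM mt-Nd5 overlapped between runs in WT libraries. At 0 h, counts of mt-Nd6 per 100 counts of mt-Nd5 were at most 28.51 in AR1-AR30 and at least 30.87 in the other runs. At later times this ratio overlapped between runs, at 34.4 in AR11 (AR1-AR30, 2 h) and 28.6 in AR53 (AR33-AR60, 24 h). The part of extraction or library preparation in these splits was not tested. mt-Nd4l was called by edgeR in no comparison, and DESeq2 called it higher with anti-IL-2 in KO cells. It stayed between 0.319 and 7.11 CPM in all libraries. mt-Atp8 was below the filter in every comparison, at 0 to 0.391 CPM.

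Most nuclear genes for mitochondrial ribosomal proteins and respiratory subunits rose by 24 h in both genotypes. These lists were drawn up with earlier results of these data known. At 24 h 67 of 77 tested mitochondrial ribosomal protein genes were higher than at 0 h and 1 lower in KO cells, and likewise 67 and 1 in WT cells, with median log2 differences of 0.995 in KO and 0.82 in WT. The median of all genes tested was -0.06 in KO and -0.05 in WT, and of all genes tested 30.5% were higher and 30.3% lower in KO cells, and 29.2% and 30.1% in WT cells. In KO cells Mrpl12, which is also known to bind the mitochondrial RNA polymerase, was higher by 2.19 ± 0.13, and in WT cells by 1.92.

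Nuclear subunits of the same complexes moved the same way at 24 h. In KO cells 27 of 36 complex I genes, 8 of 9 complex III genes, 11 of 11 complex IV genes and 12 of 14 ATP synthase genes were higher and 0 lower. In WT cells the counts were 23 higher and 1 lower, 8 and 0, 7 and 0, and 12 and 0. The shares of all genes tested beside which these counts stand are those given above for 24 h in each genotype. Ndufab1, the acyl carrier protein of complex I, was higher by 1.55 ± 0.11 in KO and by 1.22 in WT cells, and Cox5a of complex IV by 1.34 in KO and 0.98 in WT cells. Complex II, all of whose subunits are nuclear, had 4 of 4 higher in both genotypes.

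Counts of mitochondrial mRNA per 100 counts of nuclear respiratory subunits averaged 373, 386, 285 and 180 at 0, 2, 6 and 24 h in KO libraries. In WT libraries they averaged 388, 410, 288 and 276. Within AR131-AR158 the mean was 217 at 24 h against 370 at 0 h in KO, and 356 against 339 in WT libraries. Within AR33-AR60 it was 124 at 24 h against 405 at 0 h in KO, and 155 against 511 in WT libraries. It was thus lower at 24 h in both runs in KO libraries and in AR33-AR60 alone in WT libraries. With anti-IL-2 it was 216 in KO and 206 in WT libraries.

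Of the genes for transcription of mitochondrial DNA, 3 of 10 were higher at 24 h and 1 lower in KO cells, and 4 of 10 were higher and 0 lower in WT cells, a share of higher genes near the 30.5% of all genes tested in KO and 29.2% in WT cells. Tfam, which packages the DNA and starts its transcription, was higher by 0.35 ± 0.09 (adjusted p 0.00142) in KO and by 0.42 ± 0.07 (adjusted p 3.4e-05) in WT cells. Of mitochondrial RNA processing and decay genes, 15 of 21 were higher and 3 lower in KO cells, and 13 of 21 were higher and 3 lower in WT cells. They include Rexo2, an exonuclease for short RNA, higher by 1.54 in KO and 1.19 in WT cells.

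Most nuclear complex I genes fell at 2 h. At 2 h 29 of 36 were lower and 0 higher in KO cells (29.2% of all genes tested lower), and 23 lower and 2 higher in WT cells (33.3%). At 6 h 18 of 36 were lower and 3 higher in KO cells (23.1% of all genes tested lower), and 13 lower and 7 higher in WT cells (28.2%). Complex IV genes had 10 of 11 lower at 2 h in KO and 9 of 11 in WT cells, and 4 and 5 of 11 lower at 6 h. Between genotypes, none of these lists had a called gene at 2, 6 or 24 h. At 0 h the called genes were Uqcr10 of complex III, at -0.29, and Atp5l of ATP synthase, at -0.22, both lower in KO.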

How the data were processed

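Whole-number read counts per gene were deposited by the authors as 1 table of 60 libraries. Per the submitters' processing notes, the tools were STAR 2.7.9a, SAMtools and featureCounts 2.0.1 (Subread) with GRCm39. The annotation release, the strand setting and the handling of reads with several places are not given in the sources used here. The labels name 2 extraction kits without saying which library used which. Gene names were taken from GENCODE M21 for 52081 of 55414 IDs, holding 99.57% of counts, and for 37 of 37 mitochondrial genes.

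From the counts, edgeR 4.0.16 (R 4.3.3, limma 3.58.1) gave TMM-scaled CPM and the quasi-likelihood test. Genes passed filterByExpr with a minimum count of 10, and p-values were adjusted by Benjamini-Hochberg over all genes tested in each of 17 comparisons, with 0.05 as the threshold. Library run was a model term except between genotypes at 2 h, at 6 h or with anti-IL-2, which lie in single runs, and in tests of the antibody, which coincides with its run. Tests were tried on simulated counts first. A difference is the log2 of the first group over the second, ± SE; groups are means ± SD. Floors and intervals cover counting error only. No 2 libraries agreed within sampling noise.

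Members and lists were chosen with earlier results of these data known. Named members are the called ones, at most 4 per direction by adjusted p, plus 11 given throughout (mt-Co1, mt-Cytb, mt-Nd1, mt-Nd5, mt-Nd6, mt-Atp6, mt-Atp8, mt-Nd4l, both rRNAs and mt-Tp); others named were chosen after their values were seen. Alternatives were DESeq2 1.42.0, DESeq2 size factors, scaling from nuclear genes, no low-count filter, no run term, single runs, a replicate block and leaving out each library. Leaving out AR8, AR18 and AR28 together was chosen after seeing the data. One marker gene of the lists is not reported here.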

Additional observations from a re-analysis of the deposited data

Results flagged for a closer look

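Of 144 sets of values looked at, each a measure in a group of 4 or 5 libraries (the 0 h groups of 11 were not looked at), 7 had a highest or lowest library farther from its neighbour than Dixon's 95% critical value allows, and chance flags about 1 set in 20. The ATP synthase mRNA mt-Atp6, one of the uncertain genes, accounts for 3 of them. Its highest KO library at 24 h held 19.35 CPM, its highest KO library at 24 h with anti-IL-2 held 13.05 CPM, and its highest WT library at 2 h held 9.509 CPM. The rRNA mt-Rnr2 had 567.4 CPM in the highest KO library at 6 h, AR28. The ratio of mt-Nd1 to mt-Co1 was 25.67 per 100 in the lowest KO library at 2 h. The share of tRNA counts was 0.003129% in the lowest WT library at 6 h. The low gene mt-Atp8 had 0.2029 CPM in the highest WT library at 6 h.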

How the results depend on the processing

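The counts in this section are of members called, without the number tested or the share of all genes called under each setting. A change in them therefore cannot be told apart from a change in calls among all genes. DESeq2 size factors and scaling from nuclear genes changed no count of called members. For KO against WT, DESeq2 called 1 at 0 h and 5 at 24 h, and no filter on low counts gave 2 at 0 h and 9 at 24 h, against 0 each in the main test; leaving out single libraries gave 0 to 2 at 24 h and 0 to 1 with anti-IL-2. For anti-IL-2 against none in WT cells, DESeq2 called 1 and leaving out libraries 0 to 1. In KO cells DESeq2 called 2, no filter 0, and leaving out libraries 0 to 1. At 2 h the fit without a run term called 9 in WT cells and 7 in KO cells. In KO cells at 2 h DESeq2 called 4, AR1-AR30 alone 4, and leaving out libraries 2 to 4. At 24 h in WT cells no filter called 16 and AR131-AR158 alone 14. Interactions without a filter called 1 with 2 h and 3 with 24 h. In AR33-AR60 alone the 24 h difference in WT cells reversed for mt-Nd1 (-0.1346) and mt-Nd6 (-0.48). The cause of these shifts was not tested.

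Of 2518 values of named genes under alternatives, 2420 stayed on their side of the threshold, 33 lost the call, 63 gained it and 2 reversed. Of the 2420, 111 that were not called had the other sign. Of 237 mRNA medians, 8 moved by over 1 SD.

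The labels give no pairing. Libraries numbered 10 apart were checked as pairs: 17 of 30 correlations were over 0.1, from 0.05 to 0.67 in KO and from -0.05 to 0.17 in WT cells, and 18 of 30 were highest with their own number. With that number as a replicate block within AR1-AR30, members called were 4 at 2 h and 12 at 6 h in KO cells, and 7 at 2 h and 9 at 6 h in WT cells. At 2 or 3 libraries per genotype and run, single-run results have wide errors.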
